A study of Mus musculus with 17 samples.

Results

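The genes for the subunits of oxidative phosphorylation were followed in single 2-cell mouse embryos as 114 rows (probe sets) of an expression array, which belonged to 89 genes. The members were taken by name: a row belonged to them when the platform gave it exactly 1 gene symbol and that symbol began with Nduf, Uqcr or Atp5, was one of Sdha to Sdhd, or named a lettered subunit of the Cox4 to Cox8 series. They were chosen out of 21780 rows with 1 symbol, which stood for 19935 genes. Complex I had 41 rows of 36 genes, complex II 4 rows of 4 genes, complex III 11 rows of 8 genes, complex IV 21 rows of 17 genes and complex V 30 rows of 17 genes, and 7 rows of 7 genes were assembly factors of complex I (Ndufaf1 to Ndufaf7). Rows were placed by symbol, so complex I includes Ndufa4l2 and complex IV the 2 rows of Cox7a2l, which are not core or supernumerary subunits. For 72 genes there was 1 row, and 17 genes had 2 or more rows (42 rows together).

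Transcripts were measured in 17 embryos with 1 array each, all wild-type and of strain 129SVE (129S6/SvEvTac), obtained by natural mating with untreated wild-type females. The sires of 10 embryos had received PJ34, an inhibitor of poly(ADP-ribose) polymerases, once a day for 6 weeks, and the sires of the other 7 had received saline; neither the females nor the embryos were treated. The PJ34 embryos came from 3 sires (MTM11 with 4 embryos, MTM13 with 4 and MTM14 with 2) and the control embryos from 3 others (A with 1, B with 3 and D with 3). Values are log2 signals of arrays that had been quantile normalized, so that a difference in total RNA per embryo would not show. The medians of the arrays still ran from 6.12 to 6.23. Marker lists and member rows were set against the median row of the array as a rough guide to level. Otherwise signals of different probe sets were not compared with each other as amounts of transcript.

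Oxidative phosphorylation takes place in the inner membrane of the mitochondrion. Complex I oxidizes NADH and complex II succinate, complex III passes the electrons on to cytochrome c, complex IV reduces oxygen with them, and complex V, the ATP synthase, uses the proton gradient that complexes I, III and IV build up. All members here are encoded in the nucleus, whereas a few further subunits are encoded by mitochondrial DNA. The mouse embryo before implantation lives on mitochondria inherited from the oocyte, and at the 2-cell stage it passes from stored maternal transcripts to those of its own genome.

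The labelled material was compared with marker genes. The first list joins oocyte and 2-cell markers, so its mean cannot tell these stages apart. The mean log2 signal over 13 rows of oocyte and 2-cell markers (among them Gdf9, Bmp15, Nlrp5 and Oosp1) lay between 10.2 and 10.6 in control embryos and between 9.91 and 10.7 in PJ34 embryos, and no row of the list had a mean below 8.33. The mean over the markers of cumulus cells (5.16 to 5.30 in control and 5.05 to 5.35 in PJ34 embryos), of oviduct and blood (5.55 to 5.78 and 5.60 to 6.08) and of sperm (5.69 to 5.98 and 5.71 to 5.94) stayed below 6.19, the mean of the median row of the array. The highest rows of the last 2 lists were Epcam (control 7.71, PJ34 8.01) and Prm2 (7.07 and 6.96). Within the embryo list Bmp15 differed by 0.29 and Usp17lb by -1.11 between the groups (limma, unadjusted p = 0.004 and 0.030). In the other lists Kitl differed by 0.16, Prm1 by 0.17 and Slc4a1 by -0.16 (limma, unadjusted p = 0.0132, 0.0217 and 0.0291). The part of the markers in the results was not tested. Usp17lb ran from 9.04 to 10.37 in control and from 6.58 to 10.33 in PJ34 embryos. Zfp352 of the same list ran from 8.95 to 11.18 and from 6.20 to 12.43. Whether all embryos were at one point of the 2-cell stage was not tested. Of the 114 member rows, 105 lay at or above the median row. No 2 arrays were identical, and embryos correlated with each other across rows with r between 0.924 and 0.961, which is a description over rows and not over replicates.

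Promoter windows of Atp5j, Atp5l and Ndufs3 are shown because, among the rows with an unadjusted p below 0.05 in the comparison given further on, these genes had the largest differences. The RefSeq table of build GRCm38.p6 held windows of 300 bases (250 before and 50 after the transcription start) for 73 of the 89 member genes. Capitals mark matches on either strand to the letters CCGGAAG (a core of ETS factors such as GABPA), AAGATGGC (YY1), GCGCANGCG (NRF1, where N is any base), GGGCGG (SP1) and TATAAA. The table holds a second window of Atp5j at chr16:84835576-84835875, not printed, which had 2 SP1 matches and none of the other letters. The windows printed are those of Atp5j at chr16:84834927-84835226, Atp5l at chr9:44920693-44920992 and Ndufs3 at chr2:90904672-90904971, each read along the minus strand.
Atp5j: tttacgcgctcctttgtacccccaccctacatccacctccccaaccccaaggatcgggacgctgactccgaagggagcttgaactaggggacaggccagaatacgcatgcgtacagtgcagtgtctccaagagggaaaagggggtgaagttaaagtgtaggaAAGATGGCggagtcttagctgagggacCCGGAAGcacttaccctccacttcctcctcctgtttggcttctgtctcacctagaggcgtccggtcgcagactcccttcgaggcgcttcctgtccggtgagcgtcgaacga
Atp5l: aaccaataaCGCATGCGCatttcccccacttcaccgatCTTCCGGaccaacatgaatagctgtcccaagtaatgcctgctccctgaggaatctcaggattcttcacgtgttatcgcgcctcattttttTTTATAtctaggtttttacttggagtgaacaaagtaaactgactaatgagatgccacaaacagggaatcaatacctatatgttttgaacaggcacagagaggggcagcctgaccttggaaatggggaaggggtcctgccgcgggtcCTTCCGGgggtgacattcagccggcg
Ndufs3: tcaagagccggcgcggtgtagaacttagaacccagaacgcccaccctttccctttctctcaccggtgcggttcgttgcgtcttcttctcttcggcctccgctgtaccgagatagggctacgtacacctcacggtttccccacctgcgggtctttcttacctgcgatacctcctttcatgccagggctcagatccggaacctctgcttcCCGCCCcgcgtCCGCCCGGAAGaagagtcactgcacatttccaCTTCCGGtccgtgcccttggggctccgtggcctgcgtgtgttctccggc

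The printed Atp5j window held the letters of YY1 and of ETS factors, the Atp5l window those of NRF1, of ETS factors at 2 places and of TATAAA, all on the reverse strand, and the Ndufs3 window those of ETS factors and SP1, with 1 pair of matches that share bases. Over the members, the letters of NRF1 stood in the windows of 21 of 73 genes (28.8%), against 9.63% of 17491 coding genes of the table. Those of ETS factors stood in 18 (24.7%, against 12.9%) and those of YY1 in 10 (13.7%, against 3.57%). NRF1 and GABPA are transcription factors known for their sites in promoters of respiratory chain genes, and matching letters are a description only. SP1 letters stood in the windows of 33 member genes (45.2%, against 49.2%), and TATAAA stood in the windows of 8 genes, beside 14.8% of coding genes. The start of Atp5j faces that of Gabpa on the other strand of chromosome 16, where the annotated gene models overlap by 967 bases; Gabpa had log2 signals between 11.63 and 11.93 in all 17 embryos.

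The main comparison asked whether embryos of PJ34-treated sires differed from those of saline-treated sires in any of these transcripts. No member row passed the threshold of an adjusted p below 0.1 (limma, Benjamini-Hochberg over all 21780 rows), where 0% of all rows were called, and the lowest adjusted p among the members was 0.814. At an unadjusted p below 0.05, 12 member rows (10.5%) had a lower mean in PJ34 embryos, against 3.93% of all rows, and 0 had a higher mean, against 1.96% of all rows. Those 12 rows belonged to 7 genes, and 6 of them were rows of Atp5l. With 1 row per gene, 7 of 89 (7.87%) were lower, against 3.98% of all genes taken the same way, and 0 were higher, against 1.99%. Of the 105 rows at or above the median level 10 were lower, against 4.26%, and without Atp5l 6 of 108 rows (5.56%). Without the 3 control embryos of sire D the count was 4 rows (3.51%, against 4.01% of all rows), and without the 4 embryos of sire MTM13 it was 3 (2.63%, against 3.28%). The 4 rows without sire D were 2 of Atp5l and those of Ndufa12 and Cox8c. The 3 without sire MTM13 were those of Atp5j, Cox8c and Ndufa8, of which Ndufa8 was not among the 12 (p = 0.437 over all embryos). After quantile normalization over the rows with 1 symbol, 11 member rows were lower and 1 was higher, against 3.26% and 3.02% of all rows. No member row had groups that did not overlap, which 0.0138% of all rows had.

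By complex, the median difference (PJ34 minus control, log2) was 0.06 for the rows of complex I, -0.09 for complex II, -0.11 for complex III, 0.02 for complex IV and -0.10 for complex V, beside -0.02 for all rows. All 5 medians were smaller than the SD between embryos of the complex's own median, which ran from 0.15 to 0.47. That SD describes single embryos and is larger than the standard error of a difference between group means. Whether a median differed from 0 was not tested. In complex I 18 of 41 rows were lower and 23 higher, in complex III 7 of 11 were lower, in complex IV 10 of 21 and in complex V 20 of 30, against 56.4% of all rows. Without the rows of Atp5l the median of complex V was -0.05. The assembly factors had a median of 0.00, from -0.54 for Ndufaf2 (p = 0.175) to 0.45 for Ndufaf1 (p = 0.245).

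**Figure D1:**
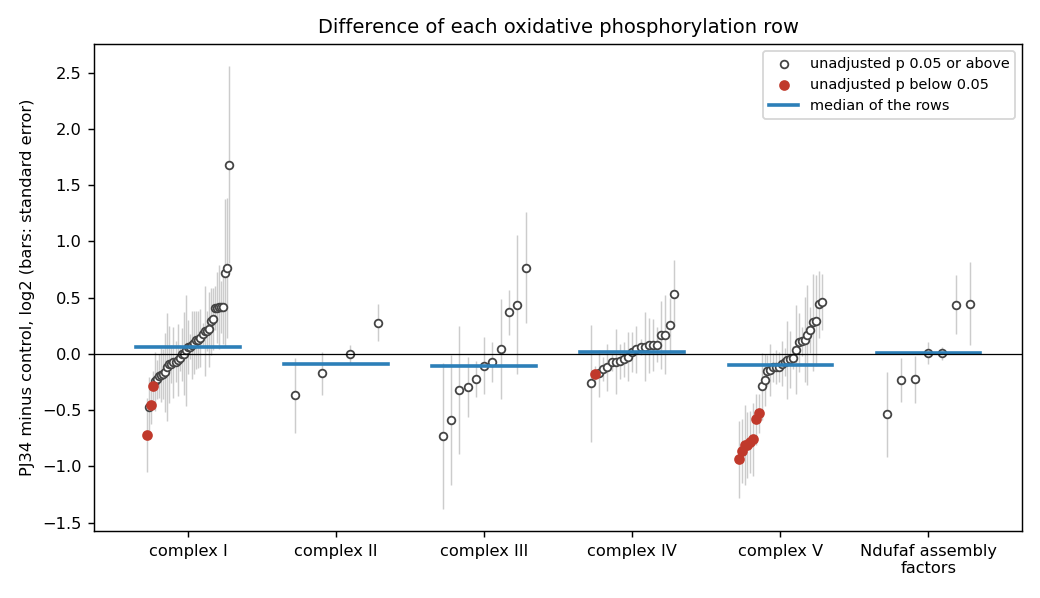
Difference of each of the 114 member rows between 10 PJ34 and 7 control embryos (log2, vertical axis), grouped by complex; points are rows sorted by size, bars their standard errors, filled points rows with an unadjusted p below 0.05 and lines the median of each group. The 12 filled points all lie below 0, 8 of them in complex V, 3 in complex I and 1 in complex IV, and the highest point is Ndufa1 at 1.68.

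Complex I gathers its catalytic core in a peripheral arm, which carries the flavin and the iron-sulfur clusters, and a membrane arm that pumps protons. Ndufa12, an accessory subunit of the peripheral arm, had log2 signals of 6.83 (lowest), 7.15 (median) and 8.31 (highest) in control embryos and of 6.54, 6.89 and 7.26 in PJ34 embryos. The difference was -0.46 (SE 0.17, unadjusted p = 0.0157, adjusted p = 0.843), 1.37-fold lower, and all 10 PJ34 embryos were below the control mean. The groups overlapped, since 6 PJ34 embryos lay above the lowest control embryo. Without control embryo B-2, which was the highest, the difference was -0.30, without sire B it was -0.24 (p = 0.121) and without sire MTM13 -0.40 (p = 0.0744). 

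Ndufs3, a core subunit next to the site of quinone reduction, had 2 rows. In row 10484912 control embryos had 7.30, 8.17 and 10.07 (lowest, median and highest) and PJ34 embryos 6.21, 7.64 and 8.28, a difference of -0.72 (SE 0.33, unadjusted p = 0.0422). In row 10386171 the same values were 7.08, 8.09 and 8.75 in control and 6.25, 7.66 and 8.14 in PJ34 embryos, with a difference of -0.47 (unadjusted p = 0.0913). Both rows placed MTM13-2 lowest and D-3 highest of all 17 embryos, and in both the groups overlapped. Without D-3 the difference of row 10484912 was -0.43 (p = 0.112), and it was also past 0.05 without sire D (p = 0.337), MTM13 (0.141) or MTM14 (0.0756). Ndufs7, a core subunit that holds the last iron-sulfur cluster before quinone, had 6.43, 6.92 and 7.47 in control and 6.24, 6.63 and 7.01 in PJ34 embryos, a difference of -0.28 (unadjusted p = 0.0484) that was -0.19 without D-3 (p = 0.135) and kept p below 0.05 without sire B only, among the 6 sires left out in turn.

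The largest positive differences of complex I did not pass either threshold. Ndufa1, a small membrane-arm subunit encoded on the X chromosome, had log2 signals of 9.52 in A-2, 7.35 in B-1, 4.90 in B-2, 5.07 in B-3, 10.90 in D-1, 8.37 in D-2 and 4.98 in D-3. In PJ34 embryos it ran from 7.14 over a median of 8.44 to 11.18. B-2, B-3 and D-3 were below every PJ34 embryo and the other 4 controls were within the PJ34 range, and the highest control embryo stood 63.9-fold above the lowest. The difference was 1.68 with an SE of 0.87 and a 95% interval from -0.16 to 3.53 (unadjusted p = 0.0715), and its control SD of 2.42 was higher than that of 99.9% of all rows. Ndufa4, which carries a complex I symbol but is known as a component of complex IV, differed by 0.76 (p = 0.238) and by 0.28 without control embryo B-2. Its relative Ndufa4l2, known as a target of hypoxia signalling, differed by -0.04 (interval -0.29 to 0.21).

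Complex II, the only complex with no subunit from mitochondrial DNA, was represented by all 4 of its genes with 1 row each. Sdha, the flavoprotein, had 6.50, 6.61 and 7.14 (lowest, median and highest) in control embryos and 6.36, 6.91 and 7.57 in PJ34 embryos, a difference of 0.28 (95% interval -0.07 to 0.62, p = 0.108). Sdhb, the iron-sulfur subunit, differed by -0.17 (interval -0.58 to 0.23). Of the membrane anchors, Sdhc differed by -0.37 (interval -1.07 to 0.33) and Sdhd by 0.00 (interval -0.16 to 0.16). Sdhc varied over 3.20 log2 units between control embryos and over 1.10 between PJ34 embryos; without D-3, its highest embryo, the difference was -0.08. Sdhd varied over 0.51 and 0.42 units.

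In complex III the rows with the largest differences were those in which a few embryos stood far from the rest. Uqcr11, one of its smallest subunits, had 2 rows with differences of 0.77 (p = 0.138) and 0.44 (p = 0.490). In row 10359826, MTM11-4 had 10.35, MTM13-4 had 9.95 and MTM11-3 had 8.47, and the other 7 PJ34 embryos lay at or below 7.58, while control embryos ran from 6.57 to 8.12. In row 10370833 the same 3 embryos were highest among the PJ34 embryos, with 10.14, 10.07 and 7.995. Uqcrb, a subunit at the quinone site, had 3 rows with differences of -0.73, -0.59 and -0.32 (p = 0.278, 0.326 and 0.577). In its row 10412711 both groups held low embryos. D-2 had 6.54 against 8.59 to 10.32 in the other control embryos, and MTM11-1, MTM13-4, MTM14-1 and MTM14-2 had 5.73 to 6.75 against 7.56 to 9.97 in the other PJ34 embryos. The core proteins Uqcrc1 and Uqcrc2 differed by -0.23 (p = 0.175) and 0.37 (p = 0.0807), and the Rieske protein Uqcrfs1 by -0.07 (p = 0.703).

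Several subunits of complex IV exist as a general form and a form known from heart and muscle, lung or testis. For Cox4i1, present in most tissues, control embryos had 9.63, 10.69 and 11.11 (lowest, median and highest) and PJ34 embryos 9.90, 10.39 and 11.23, a difference of -0.12 (interval -0.56 to 0.32). Its lung form Cox4i2 stayed between 6.59 and 7.11 in all 17 embryos and differed by 0.06 (interval -0.08 to 0.20). The pair Cox6a1 and Cox6a2 differed by 0.08 and -0.13, the pair Cox6b1 and Cox6b2 by 0.25 and 0.08, and Cox7a2 and Cox7a1 by -0.07 and -0.26, with every p at or above 0.237. Cox7b, on the X chromosome, had differences of 0.17 and 0.53 in its 2 rows (p = 0.630 and 0.0910). The testis form Cox6b2 had control values of 9.98 to 10.90 and PJ34 values of 9.51 to 11.43, and the muscle form Cox7a1 reached 9.38 in B-1 and 9.18 in MTM13-2 but had a median of 6.23 and 6.29 in the groups.

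Cox8c, known as the testis form of the Cox8 subunit, was the only row of complex IV with an unadjusted p below 0.05. Control embryos had 5.83, 6.07 and 6.21 (lowest, median and highest) and PJ34 embryos 5.64, 5.83 and 6.07, a difference of -0.18 (SE 0.07, p = 0.0233, adjusted p = 0.843) on a row below the median of the array. It was -0.15 without D-3 (p = 0.0599), -0.11 without sire B (p = 0.228) and -0.15 without sire MTM11 (p = 0.0834). The general form Cox8a differed by -0.02 (p = 0.913) and the muscle form Cox8b by -0.07 (p = 0.340).

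Complex V holds a catalytic head, a ring of c subunits in the membrane and a peripheral stalk that keeps the head from turning with the ring. Atp5j, coupling factor 6 of the peripheral stalk, had 10.15 in A-2, 10.07 in B-1, 9.58 in B-2, 9.996 in B-3, 10.05 in D-1, 10.15 in D-2 and 10.14 in D-3. In PJ34 embryos it had 7.60 in MTM11-1, 8.33 in MTM11-2, 10.07 in MTM11-3, 9.80 in MTM11-4, 9.13, 9.26, 8.79 and 9.61 in MTM13-1 to MTM13-4, 9.90 in MTM14-1 and 9.07 in MTM14-2. The control embryos other than B-2 lay between 9.996 and 10.15, and 6 of the 10 PJ34 embryos were below all of them, B-2 included. The difference was -0.86 (SE 0.28, 95% interval -1.46 to -0.26, unadjusted p = 0.00762, adjusted p = 0.814), 1.82-fold lower. Leaving out any single embryo kept the difference between -0.96 and -0.69 and the unadjusted p at or below 0.0147. Without the 3 embryos of sire D it was -0.79 with an unadjusted p of 0.0539, while leaving out any other sire kept p below 0.05.

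Atp5o, the stalk subunit that confers oligomycin sensitivity and also lies on chromosome 16, had control values of 7.91, 8.14 and 9.34 (lowest, median and highest) and PJ34 values of 7.35, 7.78 and 8.18. All 10 PJ34 embryos were below the control mean and 8 were below the lowest control embryo, while MTM11-2 and MTM14-2 reached into the control range. The difference was -0.53 (SE 0.18, unadjusted p = 0.00799, adjusted p = 0.814), and it was -0.35 without control embryo D-3. Without sire D the difference was -0.28 (p = 0.0569) and without sire MTM13 -0.46 (p = 0.0513), so that leaving out either took it past an unadjusted p of 0.05. The other stalk subunits differed less: the 3 rows of Atp5h by 0.04 to 0.28 and the 2 rows of Atp5pb by -0.23 and -0.03, none with a p below 0.338. The head subunits Atp5a1 and Atp5b differed by -0.07 and 0.11, and Atp5c1, Atp5d and Atp5e by -0.12, 0.10 and 0.17. Their unadjusted p-values ran from 0.377 to 0.715. The ring subunit, for which Atp5g1, Atp5g2 and Atp5g3 encode the same mature protein, gave -0.09 and -0.05 for Atp5g1, 0.22, 0.44 and 0.46 for Atp5g2 and -0.06 for Atp5g3, all with p at or above 0.0836.

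**Figure D2:**
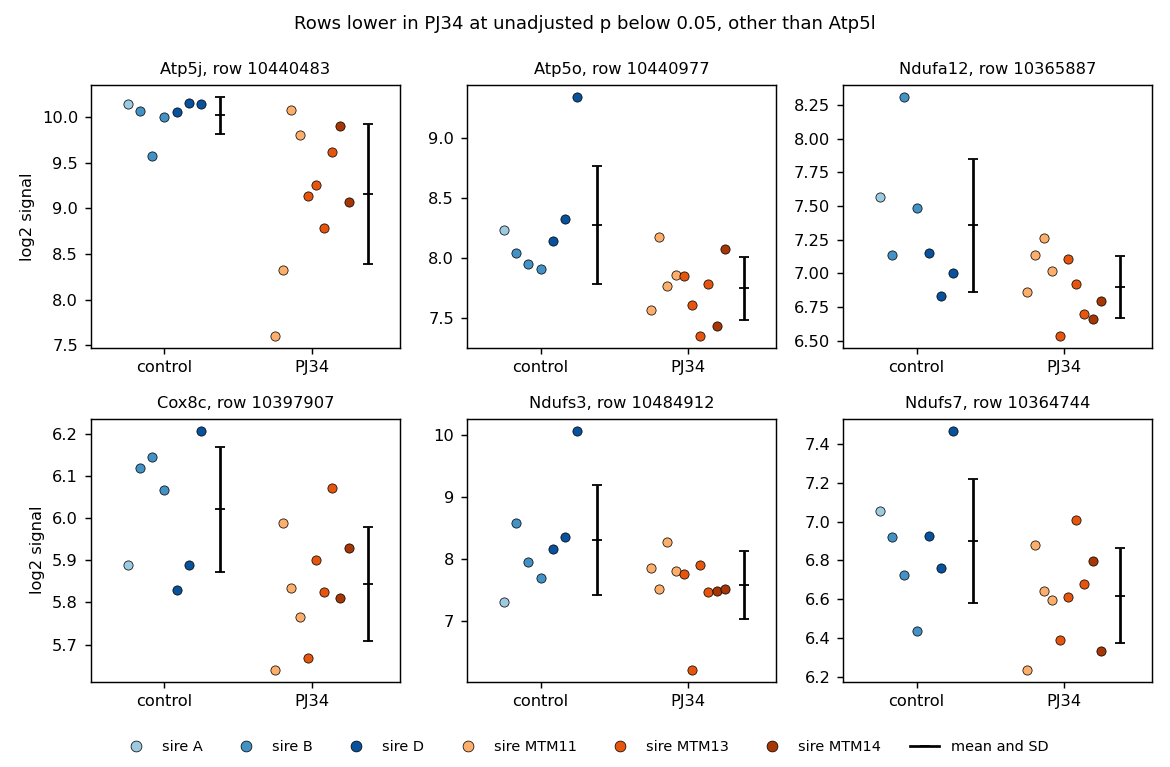
Log2 signal (vertical axes) of the 6 rows other than those of Atp5l with a lower mean in PJ34 embryos at an unadjusted p below 0.05; each point is 1 embryo, coloured by sire, with the mean and SD of the 7 control and 10 PJ34 embryos beside them. D-3 was the highest control embryo in 4 of the 6 rows, and the groups overlapped in every row.

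Atp5l, subunit g at the membrane base of the stalk, had 6 rows, for all of which the platform lists the same accessions; the gene table also lists 2 pseudogenes, Atp5l-ps1 on chromosome 7 and Atp5l-ps2 on chromosome 11, and which copies each row measures was not tested. Their differences ran from -0.94 to -0.58 with unadjusted p from 0.0120 to 0.0361. Averaged over the 6 rows, control embryos had 10.05 in A-2, 9.70 in B-1, 8.73 in B-2, 8.44 in B-3, 9.26 in D-1, 10.56 in D-2 and 8.67 in D-3. PJ34 embryos had 9.66 in MTM11-1, and the other 9 ran from 8.01 (MTM14-2) to 8.99 (MTM11-3). The control mean was 9.34 ± 0.79 (SD, n = 7) and the PJ34 mean 8.56 ± 0.51 (n = 10), a difference of -0.78. The 3 highest of the 17 embryos were controls and the next was MTM11-1, but 4 of the 7 control embryos lay below the highest PJ34 embryo and 6 of the 10 PJ34 embryos above the lowest control. Without D-2, the highest embryo, the 6 differences lay between -0.71 and -0.45, with an unadjusted p of up to 0.101. Of the 6 rows, 2 (10354739 and 10599333) kept an unadjusted p below 0.05 without sire D, 0 without sire MTM13, 3 without sire MTM14 and 4 without sire A. The 6 rows count as 1 gene and not as 6 observations, since within an embryo they deviated from their own means by nearly the same amount, with a median SD between rows of 0.13.

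**Figure D3:**
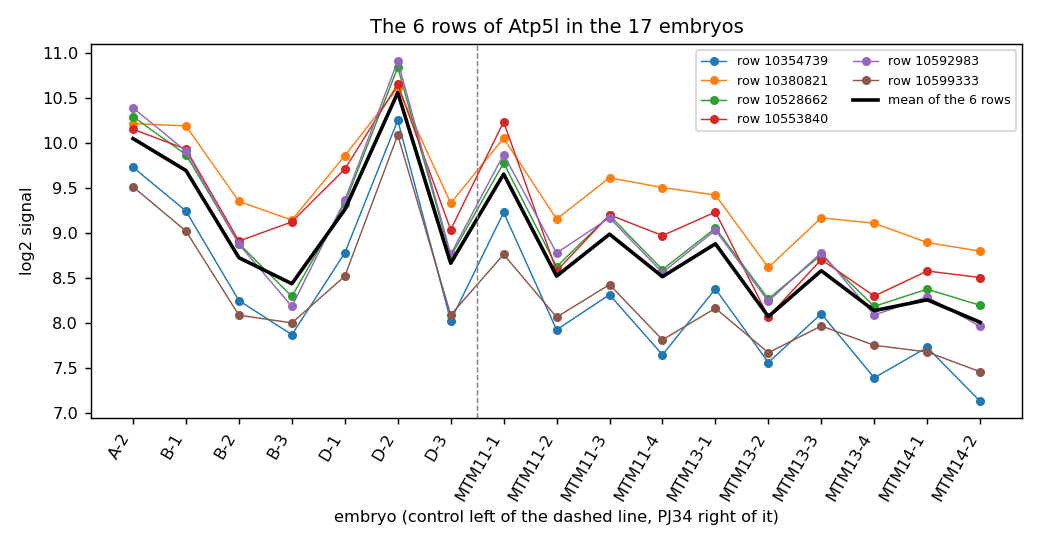
Log2 signal (vertical axis) of the 6 rows of Atp5l in each of the 17 embryos (horizontal axis, in no order within a sire); thin lines join the values of 1 row and the thick line is their mean. The rows move together from embryo to embryo, with D-2 at the top (mean 10.56) and MTM14-2 at the bottom (8.01).

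Whether rows of 1 gene rank the embryos alike was examined for all 39 pairs of rows within the 17 genes that had several. Pearson's r over the 17 embryos had a median of 0.94, and 38 of 39 pairs had an adjusted permutation p below 0.05 (100000 permutations, adjusted over the 39 pairs); the smallest p, reached by 30 pairs, was 1e-05, the lowest these permutations can give. For the 15 pairs of Atp5l rows r ran from 0.921 to 0.996 and Spearman's rho from 0.863 to 0.993, and without the 2 embryos farthest from the median r ran from 0.887 to 0.993. With group means removed r still ran from 0.884 to 0.995. The 2 rows of Cox5b had r = 0.998 (rho 0.998) and the 3 rows of Atp5md 0.982 to 0.991. In 34 of the 39 pairs both rows list the same accessions, so their agreement is not that of independent measurements.

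The exception was Atp5pb, the stalk subunit b, whose 2 rows list different accessions and had r = 0.298 (rho 0.208, permutation p = 0.246 and 0.419). The other pairs with different accessions were those of Atp5md (r = 0.991 and 0.983), Uqcr11 (0.927) and Ndufb11 (0.685). The gene table also lists a pseudogene of Atp5pb, Atp5pb-ps on chromosome 11, and which copies its rows measure was not tested. Uqcr11 had r = 0.927 but rho 0.520, and r was 0.683 without the 2 farthest embryos, so that the size of r rests on them. Pairs of Ndufb11, Cox7b, Ndufc1 and Ndufa11 had r between 0.685 and 0.715. In 37 of the 39 pairs both rows had a PJ34 difference of the same sign; the exceptions were Cox6c (0.06 and -0.05) and Ndufa11 (0.29 and -0.07).

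**Figure D4:**
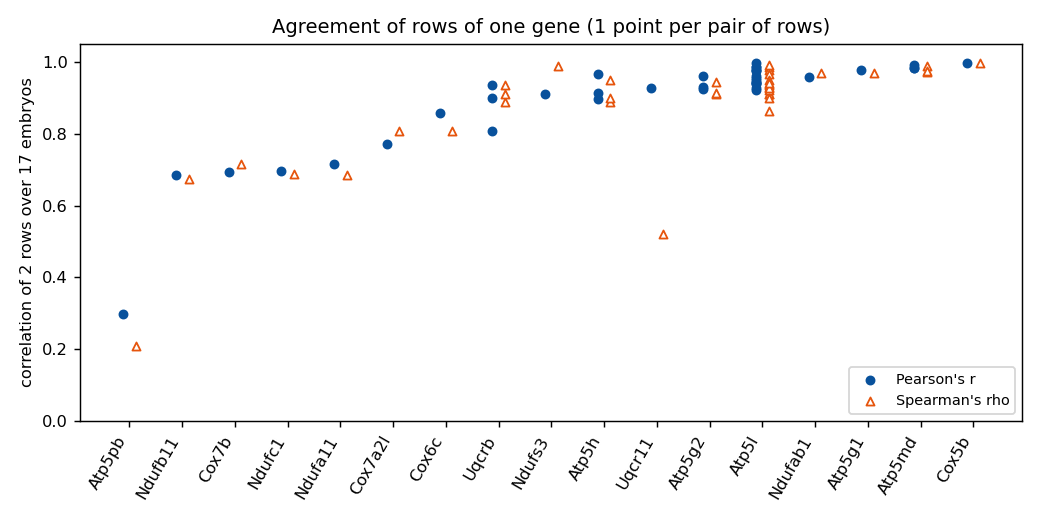
Correlation over 17 embryos (vertical axis) of each pair of rows of the 17 genes with several rows (horizontal axis, ordered by median r); circles are Pearson's r and triangles Spearman's rho, 1 of each per pair. Most pairs lie above 0.8, Atp5pb lies at 0.298 and 0.208, and the rho of Uqcr11 lies at 0.520.

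Members varied widely between embryos that had been treated alike. The median SD over the control embryos was 0.50 for member rows, against 0.18 for all rows and 0.26 for rows at or above the median level. The member rows had a median level of 8.34, against 6.25 for all rows and 7.32 for rows at or above the median level. Rows of equal level were not compared. The rows with the largest control SD in each complex were Ndufa1 (2.42), Sdhc (1.03), Uqcrb (1.39), Cox7a1 (1.34) and Atp5h (1.10). The SD was larger in PJ34 than in control embryos for 59 of 114 rows (51.8%), against 53.6% of all rows. D-2 was the highest control embryo in 24 member rows (21.1%, against 10.03% of all rows). Among them were 7 of the 12 rows with an unadjusted p below 0.05, namely all rows of Atp5l and that of Atp5j. D-3 was the highest in 4 of the 12. The 12 rows were picked by their lower PJ34 mean, which favours rows with a high control embryo. B-2 was the lowest control embryo in 27 member rows (23.7%, against 10.2%). Of the PJ34 embryos, MTM11-3 was the highest in 20 (17.5%, against 7.88%) and MTM11-1 the lowest in 24 (21.1%, against 14.6%).

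Each PJ34 embryo was also set against the 7 control embryos, with the spread taken from the controls. Of 1140 tests of member rows 9 were called at an adjusted p below 0.1 (0.789%, against 0.581% of all rows), 3 lower (0.101% of all rows) and 6 higher (0.480%). With each control embryo set against the other 6, 3 of 798 were called (0.376%, against 0.397%): Ndufc2 in A-2 at 2.13, Atp5j2 in D-2 at -2.001 and Atp5o in D-3 at 1.24. The 3 lower calls all fell on Atp5j, at -2.41 in MTM11-1 (adjusted p = 0.00230), -1.69 in MTM11-2 (0.0332) and -1.23 in MTM13-3 (0.0832). That is 5.33-fold, 3.23-fold and 2.34-fold below the control mean. The calls of Atp5j in MTM11-1 and MTM11-2 were also made with each of the 7 sets of 6 control embryos, and that in MTM13-3 with 1 of them.

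The 6 higher calls fell on 5 genes and 5 embryos. With the 7 sets of 6 control embryos, Ndufa5, Cox7b2 and Uqcr11 in MTM11-4 were called with all 7, Ndufs6 with 6, and Ndufs5 and Uqcr11 in MTM13-4 with 2. Ndufa5, an accessory subunit of the peripheral arm of complex I, was 2.25 above the control mean in MTM11-1 (7.55, where control embryos had 4.99 to 5.55). Ndufs6, which carries a zinc ion, was 2.42 above it in MTM11-2 (9.58, against 6.75 to 7.61), and Ndufs5 was 2.58 above it in MTM13-3 (8.51, against 5.54 to 6.68). Cox7b2, known from testis, was 2.42 above it in MTM13-3 (6.80, against 4.02 to 4.88). Uqcr11 was 3.25 above it in MTM11-4 and 2.84 in MTM13-4, both in row 10359826. Its other row, 10370833, had 10.14 and 10.07 in these embryos and was not called there. The other 9 PJ34 embryos had at most 5.94 in Ndufa5, 8.24 in Ndufs6, 6.39 in Ndufs5 and 4.56 in Cox7b2, and the means of the groups differed by 0.31 for Ndufa5 (p = 0.28), 0.42 for Ndufs6 (p = 0.217), 0.00 for Ndufs5 (p = 0.998) and 0.17 for Cox7b2 (p = 0.592). With the spread taken from all 17 embryos 0 member rows and 0 of all rows were called.

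**Figure D5:**
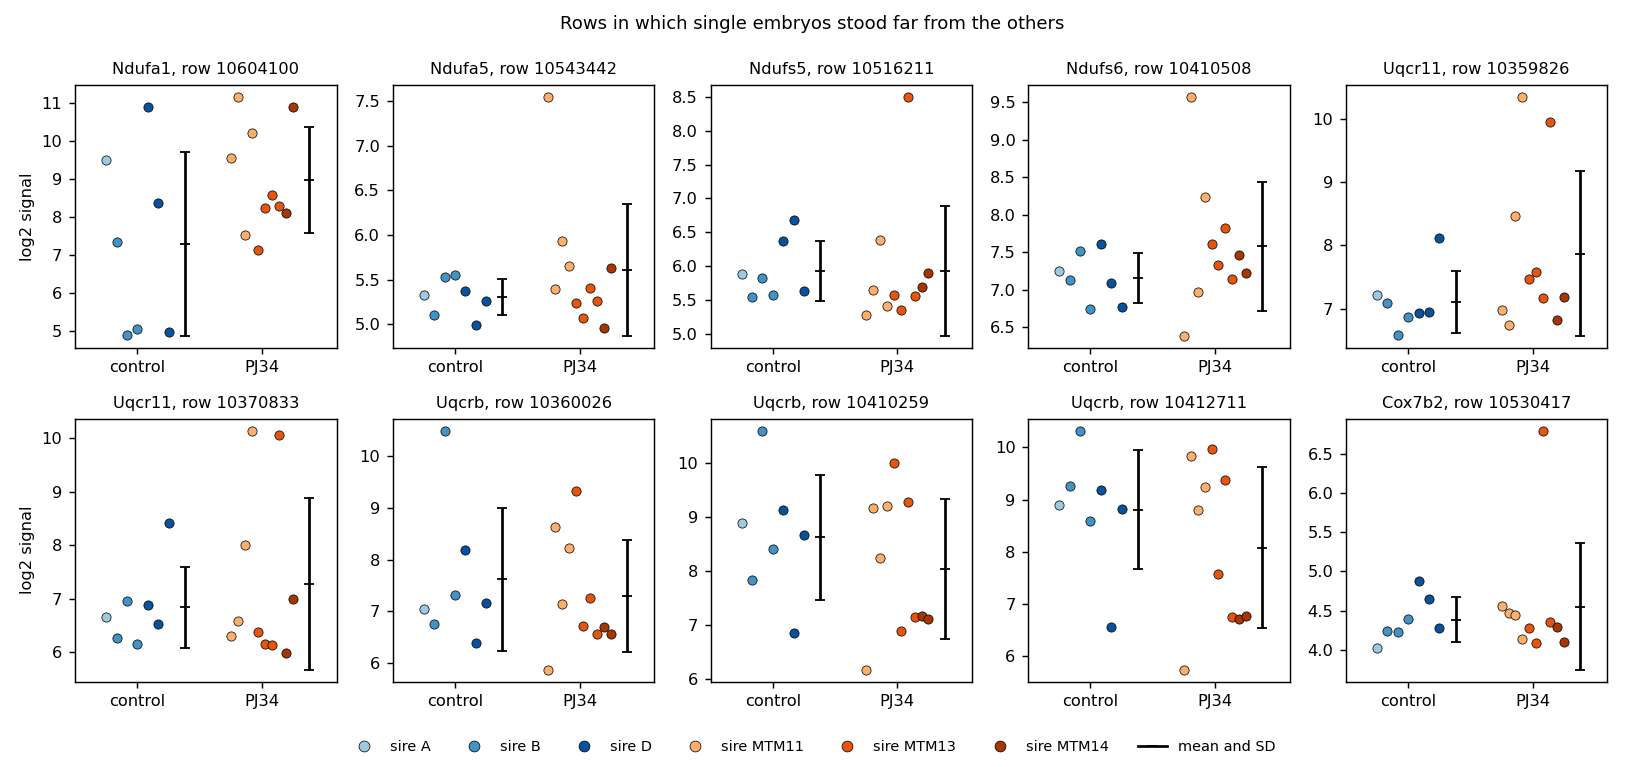
Log2 signal (vertical axes) of rows of Ndufa1, Ndufa5, Ndufs5, Ndufs6, Uqcr11, Uqcrb and Cox7b2, 1 point per embryo coloured by sire, with the mean and SD of 7 control and 10 PJ34 embryos. Single PJ34 embryos stand apart in Ndufa5 (MTM11-1, 7.55), Ndufs5 (MTM13-3, 8.51), Cox7b2 (MTM13-3, 6.80) and Uqcr11 (MTM11-4 and MTM13-4), while Ndufa1 and Uqcrb vary widely in both groups.

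Set against the control embryos separately by sire, the offspring of MTM11, MTM13 and MTM14 had 0 called member rows each, where 0.00459%, 0% and 0.0551% of all rows were called; the 3 comparisons share the control embryos. At an unadjusted p below 0.05 the members had 2 lower rows (1.75%, against 2.53% of all rows) and 5 higher (4.39%, against 2.72%) in MTM11. In MTM13 they had 11 lower (9.65%, against 2.90%) and 3 higher (2.63%, against 2.06%). In MTM14 they had 8 lower (7.02%, against 3.00%) and 0 higher (against 2.53%). These are counts of rows, in which the 6 rows of Atp5l were not reduced to 1 gene. Atp5j differed by -1.07 in MTM11, -0.82 in MTM13 and -0.53 in MTM14, and Atp5o by -0.43, -0.63 and -0.52. The 6 rows of Atp5l ran from -0.60 to -0.23 in MTM11, from -1.07 to -0.74 in MTM13 and from -1.45 to -0.97 in MTM14. Whether these effects differed between sires was tested with a moderated F test (limma), and 0 member rows were called, where 0.0138% of all rows were.

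At an unadjusted p below 0.05 in that test, 9 member rows (7.89%) differed between the PJ34 sires, against 4.91% of all rows. Cox6c, a complex IV subunit, had both of its rows among them: in row 10428119 the 4 embryos of MTM11 had 11.24 to 11.48, those of MTM13 10.56 to 10.84 and those of MTM14 10.60 to 10.63 (p = 0.00262, adjusted p = 0.780), and control embryos ran from 10.41 to 11.45. Ndufb11, an X-linked subunit of the membrane arm, also had both rows among them, with MTM14 lowest (9.97 and 10.46 in row 10525471, against 10.84 to 11.28 in the embryos of the other PJ34 sires). Ndufb9 was lowest in MTM13 (7.73 to 9.66, against 9.50 to 10.30 in the other PJ34 embryos), and the rest were rows of Ndufc1, Ndufb8, Ndufa5 and Uqcrh. None of them passed the adjustment over all rows.

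Other genes of the pathway gave no call either. Of 72 rows of electron carriers, assembly factors, mitochondrial DNA maintenance and nuclear regulators, 2 were lower (2.78%, against 3.93% of all rows) and 3 higher (4.17%, against 1.96%) at an unadjusted p below 0.05. The higher rows were Etfb, the electron transfer flavoprotein subunit, at 0.85 (p = 0.0297), Cox20, an assembly factor of complex IV, at 0.41 (p = 0.0281) and Tmem186, a complex I assembly factor, at 0.64 (p = 0.0405). The lower rows were Uqcc1, for complex III assembly, at -0.82 (p = 0.0470) and Cox15, which makes heme for complex IV, at -0.24 (p = 0.0429). Cytochrome c (Cycs) differed by -0.30, -0.27 and -0.11 in its 3 rows, and Nrf1, Gabpa and Yy1 by -0.18, -0.05 and 0.02, with p at or above 0.180.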

How the data were processed

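RNA of single 2-cell embryos was amplified (WT-Ovation One-Direct) and hybridised to Affymetrix Mouse Gene 1.0 ST arrays. The authors deposited log2 values, made in Partek by RMA (background correction, quantile normalization and probe set summarization); for versions and genome build the sources used here give nothing. Of 28815 rows, 1605 had several symbols and 5430 none and were left out of the tests. Values were fitted with limma 3.58.1 (R 4.3.3) over the 21780 rows with 1 symbol in all 17 embryos, with Benjamini-Hochberg adjustment over those rows, a threshold of 0.1 and 0.05 for unadjusted p. The median SE of a difference was 0.09 over all rows with 1 symbol. It was 0.14 over rows at or above the median level, 0.25 over the member rows and 0.45 over those of complex III. Differences of members were thus estimated less precisely. The SE holds the spread between embryos as well as that of the measurement, and the 2 were not separated. Python 3.11.15, numpy 2.4.6, scipy 1.17.1 and pandas 2.3.3 served for the rest. The fits were tested on simulated data.

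Control sires are called both saline treated and untreated in the labels, and saline is used here. Embryos of 1 sire share that sire, and the fit over embryos treats them as independent; the number of arrays limits precision. Alternatives were sire as a random block, means of sires, centring, quantile normalization, all rows, a filter on level, plain analysis of variance, 1 row per gene, and leaving out each embryo or sire. The block fit had a correlation of -0.04 within sires and was no stricter, with 4.73% of all rows lower at an unadjusted p below 0.05, against 3.93%. For the 12 lower member rows, limma on sire means gave p = 0.247 for Ndufs3 row 10484912 and 0.111 for Cox8c. For the rest it gave 0.00182 (Atp5j) to 0.0375 (Atp5l row 10592983).

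Rows were named if called, if unadjusted p was below 0.05 (with other rows of that gene), if among the 2 largest differences each way in a complex, if a Sdh gene, a tissue isoform, or the row of largest control SD. Further rows were named for their role or for how they moved after their values were seen. Members and lists were chosen with earlier results of these data known.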

Additional observations from a re-analysis of the deposited data

Results flagged for a closer look

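In 12 of 96 combinations of a named row and a group (12.5%) a single embryo stood apart from the rest by Dixon's criterion, and in 30 of 228 (13.2%) over all member rows, and over all rows with 1 symbol it was 5142 of 43560 (11.8%). By chance about 1 in 20 groups shows this, and rows of a gene are not independent. Among PJ34 embryos, MTM13-2 was lowest in both rows of Ndufs3 (6.25 in row 10386171, next 7.15, and 6.21 in row 10484912, next 7.46) and highest for Cox7a1 (9.18, next 7.19). MTM13-3 was highest for Ndufs5 (8.51, next 6.39) and Cox7b2 (6.80, next 4.56), and MTM11-1 for Ndufa5 (7.55, next 5.94). Among control embryos, D-3 was highest in both rows of Uqcr11 (8.12 in row 10359826, next 7.22, and 8.41 in row 10370833, next 6.96), for Cox6a2 (7.90, next 7.33) and for Atp5o (9.34, next 8.32). D-2 was highest for Cox7b in row 10601356 (8.46, next 7.55), and B-2 was lowest for Atp5j (9.58, next 9.996).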

How the results depend on the processing

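Under 31 alternatives 0 member rows were called between PJ34 and control embryos. The count of member rows lower at an unadjusted p below 0.05, 12 over all embryos, was 7 with 1 row per gene, 4 without sire D, 3 without sire MTM13, 7 without sire MTM14 and 6 without Atp5l (chosen after seeing the data), and 8 to 13 with single embryos left out. Of the 12 rows themselves 4 stayed below 0.05 without sire D, 2 without MTM13 and 7 without MTM14. Against 0 higher rows there were 1 with sire as a random block, 4 with means of sires, 1 with centred arrays, 1 with quantile normalization, 3 without sire A, 1 without B, 3 without D, 3 without MTM13 and 4 without MTM14, and 0 to 3 with single embryos left out. The 9 calls in single PJ34 embryos numbered 5 over rows at or above the median level, 0 with the spread of all 17 embryos and 6 to 14 with a control embryo left out, the highest without D-2 (chosen after seeing the data). With single embryos left out the median differences ran from -0.00 to 0.10 for complex I, -0.14 to -0.01 for II, -0.22 to -0.04 for III, -0.05 to 0.05 for IV and -0.15 to -0.07 for V. With sires left out they ran wider: complex I to -0.01 (without MTM11), II from -0.22 (without B) to 0.08 (without D), IV from -0.11 (without B) to 0.10 (without D); means of sires gave -0.28 for III and -0.17 for V. Of 48 named rows 21 changed sign in some setting, but 0 of the 12 did. The cause of these changes was not tested. No paired analysis was possible because embryo numbers are counted within a sire and no sire is in both groups.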

Other observations

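Rows of subunits encoded by mitochondrial DNA, looked up after the list's own prefix matched 0 rows, differed by -0.09 and -0.09 for ND3 and by -0.02 and -0.01 for COX2, with control SDs of 0.14 to 0.20 (n = 7). Their mean signals lay between 11.7 and 12.6, where the highest row with 1 symbol had 13.3. Whether signals so high still follow the amount of transcript was not tested. Rows that the platform gives to several symbols were not members: the 3 rows of Cox7c differed by -0.20, -0.19 and -0.16 (unadjusted p = 0.270, 0.318 and 0.328), those of Ndufb4 by 0.01 and 0.07 and that of Ndufs5 by 0.14.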
